A study of Mus musculus with 9 samples.

Results

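Eed, Kmt2e and Brd2 encode chromatin proteins, and the RNA structure of the 5′ untranslated regions (5′ UTRs) of their mRNAs was probed in mouse embryonic stem cells. The regions were chosen by name: every amplicon of the transcripts deposited as NM021876 (Eed), NM026984 (Kmt2e) and NM001204973 (Brd2) was taken, whatever its values. That gave 11 amplicons of 161 and 2311 nucleotide readings of 32967. Eed had 2 amplicons (426 readings), Kmt2e 3 (622 readings) and Brd2 6 (1263 readings). The 2311 readings covered 1911 positions, of which 400 were read in 2 overlapping amplicons. All positions below are counted from the start of the deposited transcript, as the genome build is not stated in the labels used here. The readings lay between positions 91 and 443 in Eed, 66 and 492 in Kmt2e, and 622 and 1754 in Brd2, and were spliced mRNA sequence that the labels treat as 5′ UTR.

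The study asked how conserved 5′ UTRs fold inside cells and outside them, with 3 groups of 3 independently collected samples of the E14TG2a line, an established mouse embryonic stem cell line without a stated modification. Untreated cells were exposed in 250 mM bicine buffer to dimethyl sulfate (DMS), at 1.6% and 37 °C, for 6 min. ATP-depleted cells were first held for 10 min in glucose-free medium with 10 mM 2-deoxyglucose, a block to glycolysis, and 10 mM sodium azide, a block to respiration, and both agents stayed in the media until probing. The third group was RNA refolded in vitro, whose probing conditions the labels used here do not state.

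DMS methylates the base-pairing face of A and C where that face is free, so a paired or protein-covered base reacts weakly. Reverse transcription turns each modified base into a mutation, and the mutations along an amplicon give its reactivity profile. Reactivity is in CPM, the count at a nucleotide scaled to a fixed total for the amplicon and sample. It gives the distribution of signal along an amplicon, so that an overall rise or fall of an amplicon cannot be seen, and one nucleotide can rise only while others fall. DMS-free samples were not analysed here, and how much of a reading is background at its base is unknown.

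Eed is a core subunit of Polycomb repressive complex PRC2, the methyltransferase that marks silent genes, and it binds the methyl mark that the complex places. Kmt2e, also called Mll5, is a SET- and PHD-domain protein whose PHD finger binds methylated histone H3. Brd2 is a bromodomain protein of the BET family that binds acetylated histones and takes part in transcription. In embryonic stem cells, PRC2 helps to keep developmental genes silent, and the leader of an mRNA is one of the places where its translation is set.

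The stretches of 30 nt with the most changes between untreated cells and RNA refolded in vitro are shown here because the results on single nucleotides turn on them. Capitals mark the A and C nucleotides whose reactivity passed the test in the direction named, in at least 1 amplicon, and all sequences are copied from the deposited table, with T for U.

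Eed 242 to 271, lower in vitro: gggcgCgCgcgtgcgCgcccCtttttCAgC
Eed 407 to 436, higher in vitro: aggCccCgcccgaggcggcaagaacctggA
Kmt2e 165 to 194, lower in vitro: tggccCgCAgtgcccgactCttgggttCCC
Kmt2e 380 to 409, higher in vitro: tgcaatgAgCactgtggCtggcAtgccCcA
Brd2 1533 to 1562, higher in vitro: AgttgcggggAggAcggcgCAggagacAgC
Brd2 1564 to 1593, lower in vitro: ttCcCgCCggtCCCgCAACgaggctgacgC

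The capitals are 7 of 13 tested nucleotides in the Eed stretch with falls, 7 of 14 in that of Kmt2e and 12 of 17 in that of Brd2. In the stretches with rises they are 3 of 18 in Eed, 6 of 15 in Kmt2e and 7 of 13 in Brd2. Nucleotides that passed the test in the opposite direction also lay there, 4 in the Eed stretch with rises, 2 in that of Kmt2e and 3 in that of Brd2. The Eed stretch printed for its rises thus held more falls than rises. Among the stretches with falls, 1 such nucleotide lay in Eed, 3 in Brd2 and 0 in Kmt2e.

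The recovered counts per amplicon and sample ranged from 478 to 198439. The shallowest amplicon was Eed 71 to 321, with 1075, 478 and 1020 counts in vitro against 7672 to 14842 in the cell samples. Its profiles correlated between in vitro replicates by Pearson's r of 0.103 to 0.455 across its A and C, and between untreated replicates by 0.586 to 0.657. The low counts and the low replicate correlation move together with the in vitro group in this amplicon. Of its bases called against untreated cells and described below, C268 and C287 kept the call with counts thinned to the smallest library, while the log2 change of C271 then stood at -0.90 (limma adjusted p = 0.141) and that of A155 at 1.18 (adjusted p = 0.0672). Kmt2e 272 to 522 also varied between replicates, with r of 0.432 to 0.699 in untreated cells and at least 7507 counts. In the other 9 amplicons the mean r within a group was 0.846 or more. With each position counted once, the share of G and C was 74.2% in Eed, 60.7% in Kmt2e and 67.6% in Brd2, against 57.8% in the whole table.

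The level differed between the bases. In untreated cells, the median A reading was 11861 ± 1050.2 CPM in Eed, 9233 ± 711 in Kmt2e and 9971 ± 579.8 in Brd2 (mean ± SD of 3 samples). The median C reading was 4557 ± 206, 4602 ± 153 and 4849 ± 15.1 CPM, and the median G reading 1162 ± 18.5, 897 ± 57.9 and 797 ± 46.6 CPM. The median T reading was 4548 ± 435, 3898 ± 510 and 3801 ± 372 CPM, close to that of C in Eed. In vitro the median T of Eed, 4437 ± 910 CPM, lay above its median C, 2242 ± 127 CPM. In untreated cells A was therefore the most reactive base and G the least in each of the 3 genes. The whole table gave the same order, with A at 8589, C at 4829, T at 3897 and G at 837 CPM in untreated cells.

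The 3 nucleotides with the highest mean reading in each leader are printed with up to 10 nt on each side, the nucleotide itself in capitals, to show which bases DMS reached most.

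Kmt2e A102: tgcgttcgggAgcggcagcag
Kmt2e C110: ggagcggcagCagagggggca
Kmt2e A254: ctgcgaccgcAgtggctgtcg
Brd2 C666: ggggagatggCgcctacacgc
Brd2 C1650: ctgggcccggCggtgagggga
Brd2 C1284: atggaggcggCggctctctga
Eed C443: tggagggaggC
Eed A440: acctggagggAggc
Eed A407: ggtgtggcggAggccccgccc

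Kmt2e A102 read 55505, 55702 and 55945 CPM in the untreated samples 1 to 3, 60969.9, 70167 and 73529 CPM after ATP depletion and 92736, 102122 and 87356 CPM in vitro. All 3 in vitro samples lay above all 6 cell samples, and ATP-depleted samples lay above the untreated ones by 0.27 on the log2 scale described below, which did not pass the test. Kmt2e C110, 8 nt downstream, read 19969.9, 24880.2 and 26428 CPM in the untreated samples 1 to 3, 25795, 27999.9 and 29984 CPM after ATP depletion and 38767, 60115 and 42576 CPM in vitro, again with the in vitro samples on top and with the cell groups overlapping. The third most reactive base of Kmt2e, A254, read a mean of 18183 ± 3404 CPM in untreated cells in the amplicon 47 to 297 and 9562 ± 627 CPM in 232 to 482, so its level depends on the amplicon that reads it.

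Brd2 C666 was the most reactive base of that leader, at 69799, 109408 and 87261 CPM in the untreated samples 1 to 3, 83852, 111124 and 85269 CPM after ATP depletion and 69745, 75159 and 61044 CPM in vitro. The in vitro samples overlapped with the untreated ones, and neither contrast with them passed the test (limma adjusted p = 0.245 and 0.162). Brd2 C1650 read 56634, 49602 and 47306 CPM in the untreated samples 1 to 3, 62177, 55097 and 56591 CPM after ATP depletion and 83850.4, 79121 and 76127 CPM in vitro in the amplicon 1433 to 1683, and lower values with the same order of groups in 1524 to 1774, where the means were 28365 ± 2825, 30134 ± 3270.3 and 42303 ± 721 CPM. Brd2 C1284 rose by 0.31 ± 0.09, from 31208 ± 1307 CPM in untreated cells to 39558 ± 1935 CPM in vitro (limma adjusted p = 0.0452), a call that was lost in 14 of 19 alternative analyses. In Eed, C443 is the last base read and spread from 17459.5 to 55951 CPM in vitro, while A440 and A407 had means of 17724 ± 1769 and 16768 ± 1588 CPM in untreated cells.

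Changes were tested with limma on log2(CPM + 3197), where the added constant is 0.5 times the median A and C reading, fitted to all 16178 tested A and C readings of the table and all 9 samples. Of these, 1076 belonged to the 3 genes (366 A and 710 C), which is every A and C read in them. A reading was called where p adjusted by Benjamini-Hochberg over all 16178 was under 0.05. Counts of readings that rose or fell are counts of called readings. Log2 changes on this scale understate the change of weakly reactive bases. All changes are given with the standard error of the fit, and group values with the SD of 3 samples.

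ATP depletion was compared with no treatment to ask whether the leaders fold differently in cells without energy. No A or C of Eed, Kmt2e or Brd2 was called, 0 of 1076, and none was called in the whole table (0% of 16178). At an unadjusted limma p under 0.05 there were 38 of the 1076 (3.53%), against 3.93% of the whole table. By gene these were 15 of 187 in Eed (8.02%), 10 of 268 in Kmt2e (3.73%) and 13 of 621 in Brd2 (2.09%). Of the 15 in Eed, 11 lay in the shallow amplicon 71 to 321. Replicates of the 2 groups did not overlap at 144 of the 1076 readings, where the whole table had 12.4%. The count of calls was also 0 under each of 20 alternatives.

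The readings with the smallest p in this comparison are given as values. In Eed this was A288, which read 5951, 1149.9 and 5300.0 CPM in the untreated samples 1 to 3, 17586, 9926 and 8734 CPM after ATP depletion and 4298, 3520.4 and 3149 CPM in vitro in the amplicon 71 to 321. There the ATP-depleted samples were above the untreated ones, by 1.09 ± 0.31 (limma unadjusted p = 0.0071, adjusted p = 1). In the overlapping and deeper amplicon 214 to 464 the same base differed by -0.07 ± 0.18, with overlapping groups. Kmt2e C184 read 5322, 4422 and 6563 CPM in the untreated samples 1 to 3, 2529, 2736 and 2718 CPM after ATP depletion and 911, 731 and 1256 CPM in vitro. Its 3 ATP-depleted samples lay below the untreated ones and above the in vitro ones, with a difference from untreated of -0.55 ± 0.11 (limma unadjusted p = 0.00109, adjusted p = 1). Brd2 C687, a weak base, differed by 0.28 ± 0.09 between means of 872 ± 186 and 1751 ± 145 CPM (limma unadjusted p = 0.0128, adjusted p = 1).

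RNA refolded in vitro was compared with untreated cells to set the bare RNA beside its state in the cell. As the probing conditions in vitro are not stated, any difference in them cannot be told apart from refolding. Counts in the 3 genes were also lower in vitro, at 189844 to 423765 a sample against 476955 to 781357 in untreated cells. Here 222 of the 1076 readings were called, 20.6% against 16.3% of the whole table. They were 95 with higher and 127 with lower reactivity in vitro (8.08% and 8.18% of the whole table). A tended to rise and C to fall: 48 A rose and 17 fell of 366, whereas 47 C rose and 110 fell of 710. In the whole table, 9.96% of A rose and 4.05% fell, and 6.7% of C rose and 11.2% fell. Bases predicted unpaired by RNAfold from the sequence rose more often than they fell, 59 against 31 of 428 (9.46% and 5.51% in the whole table), and those predicted paired fell more often, 96 against 36 of 648 (10.5% and 6.86% in the whole table). By gene, 9 rose and 28 fell of 187 in Eed, 32 rose and 25 fell of 268 in Kmt2e, and 54 rose and 74 fell of 621 in Brd2.

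The split between rises and falls depends on the scale, which stands at 54 rises and 142 falls when each amplicon is divided by its mean A and C reading and at 83 and 22 among the readings at or above the median. Omission of untreated replicate 2 gave 108 calls, and that of untreated replicate 3 gave 120. By gene, without replicate 2 and without replicate 3 in turn, it was 20 and 20 in place of 37 for Eed, 25 and 36 in place of 57 for Kmt2e, and 63 and 64 in place of 128 for Brd2. The Eed count was also 24 without ATP-depleted replicate 2 or 3, whose samples enter the shared estimate of the spread.

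In Eed, 24 of 132 C readings fell in vitro and 5 rose, and of 55 A 4 rose and 4 fell. The median of all C readings was 4466, 4413 and 4793 CPM in the untreated samples, 3756, 4359 and 4436 after ATP depletion, and 2366, 2112 and 2249 in vitro. All 3 in vitro samples lay below all cell samples. However, 67 of the 132 C readings come from the shallow amplicon 71 to 321. There, 1 count reads 2112 CPM in in vitro sample 2 and 1349.7 CPM in sample 3, so these medians stand near its counting floor. In the deeper 214 to 464, 14 of 65 C readings fell and 5 rose. The median A reading of Eed stood at 11861 ± 1050.2 CPM in untreated cells and at 11844 ± 1690.3 CPM after refolding. Most of the called falls lay between positions 200 and 299, 17 with 2 rises among 78 readings. The 2 amplicons overlap there, so this part also held the most readings. Between 300 and 399, 5 fell and 2 rose of 35, and between 400 and 499, 4 fell and 4 rose of 21. Between 100 and 199, 1 fell and 1 rose of 50. In the stretch 242 to 271 printed above, the mean of the 7 capital bases was 15456, 12016 and 13254 CPM in untreated cells, 11088, 11554 and 8559 after ATP depletion and 3614, 5965 and 3639.7 in vitro. These bases were picked because they were called lower in vitro, so their means describe them and are no test.

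Within that stretch, C271 read 11657, 11438 and 9443 CPM in the untreated samples 1 to 3, 9297, 6291 and 3379 CPM after ATP depletion and 2388, 704 and 1349.7 CPM in vitro in the shallow amplicon 71 to 321, where the in vitro readings rest on 2, 0 and 1 counts. Its change in the amplicon 214 to 464, which read it with at least 23 counts, was -0.60 ± 0.10 (limma adjusted p = 0.00631), from 7498 ± 235 to 3866 ± 309.6 CPM. Just outside the stretch, C287 fell by 0.91 on that scale in 214 to 464 (limma adjusted p = 0.00434), with 4765, 7304 and 6308 CPM in the untreated samples 1 to 3, 5519, 6224 and 6232 CPM after ATP depletion and 2088, 1138 and 2084 CPM in vitro. The in vitro samples lay below all cell samples there, and the in vitro readings in 71 to 321 rested on 3, 1 and 0 counts. C268 was called in 71 to 321 at -1.56 ± 0.40 (limma adjusted p = 0.0332) but differed by -0.14 ± 0.10 in 214 to 464 (adjusted p = 0.397), and the call was lost in 14 of 19 alternative analyses.

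Of the 9 rises of Eed, 4 lay among the 21 readings from position 400 on, near the end of the read region. As many of these readings, 4, were called lower in vitro. A440 read 19711, 17141 and 16319.5 CPM in the untreated samples 1 to 3, 18490.5, 16792 and 18230.1 CPM after ATP depletion and 37961, 33010.2 and 32562 CPM in vitro, a rise of 0.85 ± 0.11 (limma adjusted p = 0.00234). A436 read 15775, 14939.9 and 13808 CPM in the untreated samples 1 to 3, 15530.0, 14852 and 16429.7 CPM after ATP depletion and 26969, 31959.5 and 29076 CPM in vitro, a rise of 0.85 ± 0.10 (limma adjusted p = 0.00173). At both bases the cell groups overlapped and the in vitro samples lay well above them, and both lie within 8 nt of the last base read. A155 rose in 71 to 321 by 1.25 ± 0.34 (limma adjusted p = 0.0416), but its in vitro samples spread from 10028 to 32841 CPM and the call was lost in 11 of 19 alternatives.

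**Figure D1:**
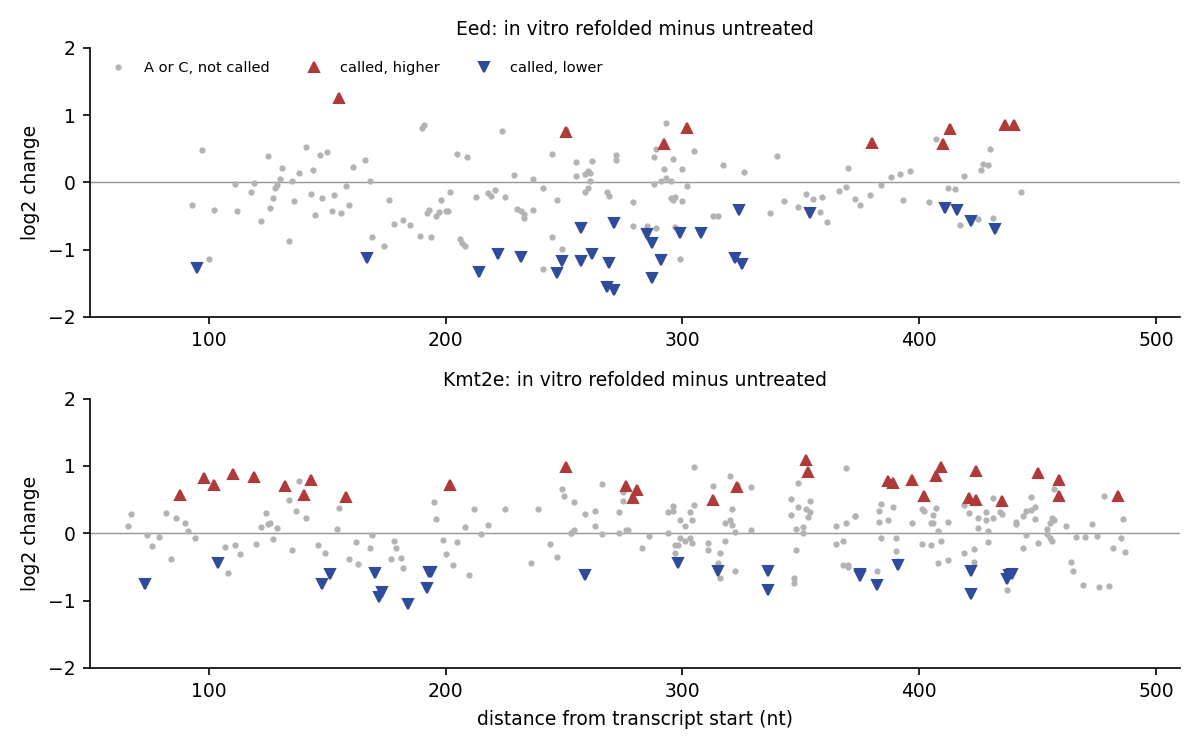
Log2 change in reactivity (log2(CPM + 3197), in vitro refolded minus untreated, n = 3 a group) of each tested A and C against its distance from the transcript start in nt, for Eed (top) and Kmt2e (bottom). Upward triangles are the called rises (9 in Eed, 32 in Kmt2e), downward triangles the called falls (28 and 25) and grey points the readings not called. Of the Eed falls, 17 lie between 200 and 299 nt, where 78 of its 187 readings lie. In Kmt2e rises and falls are mixed along the length.

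Kmt2e changed in both directions along its length. Between positions 100 and 199, 7 readings rose and 10 fell of 50, and between 400 and 499, 11 rose and 5 fell of 82. In the amplicon 47 to 297, 12 of 31 bases predicted unpaired rose and 0 fell, and 11 of 58 predicted paired fell and 0 rose. The other amplicons of Kmt2e did not divide in this way: in 232 to 482, 3 of 29 predicted unpaired rose and 3 fell, and 7 of 59 predicted paired rose and 8 fell, while in 272 to 522 it was 6 and 1 of 38, and 4 and 2 of 53. The AUC that sets reactivity against predicted pairing, described below, was 0.84 ± 0.00683 in untreated cells and 0.849 ± 0.0123 in vitro in 47 to 297 (limma adjusted p = 0.682). Falls were densest in the stretch 165 to 194, where the mean of the 7 capital bases was 3834, 4182 and 4275 CPM in untreated cells, 2944, 3126 and 3378 after ATP depletion and 865, 862 and 1337 in vitro. These bases were picked because they were called lower in vitro than in untreated cells, so the order of the means is no test, and none of them was called between the cell groups. C184, whose values are given above, fell by 1.05 from untreated cells to in vitro (limma adjusted p = 0.00133). C172 read 4289, 5421 and 6237 CPM in the untreated samples 1 to 3, 3692, 4746 and 4753 CPM after ATP depletion and 911, 1543 and 1114 CPM in vitro, a change of -0.95 ± 0.12 (limma adjusted p = 0.00248), and all in vitro samples were below all cell samples.

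C422 of Kmt2e stands 3 nt before an AUG at position 425 and fell in both amplicons that read it. In 272 to 522 it read 9672, 7474 and 12319.9 CPM in the untreated samples 1 to 3, 12023, 9998 and 11766 CPM after ATP depletion and 2930.2, 4577 and 3626 CPM in vitro, a change of -0.90 ± 0.16 (limma adjusted p = 0.0079). In 232 to 482 the change was -0.56 ± 0.15 (adjusted p = 0.0401), from 8908 ± 1687 CPM to 5017 ± 1129 CPM. In neither amplicon did the in vitro samples overlap with the cell samples.

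Of the rises of Kmt2e, C251, read once, was at 6586, 6337 and 7403 CPM in the untreated samples 1 to 3, 8071, 7609 and 7689 CPM after ATP depletion and 18037, 14914 and 16893 CPM in vitro, a rise of 0.99 ± 0.10 with no overlap between the in vitro and the cell samples (limma adjusted p = 0.000894). A352 read 8473, 6744 and 11489.7 CPM in the untreated samples 1 to 3, 9358, 7482 and 7554 CPM after ATP depletion and 21799, 24387 and 20487 CPM in vitro in 232 to 482, a rise of 1.09 ± 0.15 (limma adjusted p = 0.00383). In 272 to 522 the difference at A352 was 0.36 ± 0.29 with overlapping samples (adjusted p = 0.436). A409 was called in 272 to 522 at 0.99 ± 0.22 (limma adjusted p = 0.0188) and stood at -0.12 ± 0.15 in 232 to 482 (adjusted p = 0.639). Its call rests on untreated readings of 634, 1847 and 3387 CPM, and it was lost without in vitro replicate 2 and without untreated replicate 2, where the change was 0.92 and 0.99 (adjusted p = 0.0508 and 0.0583). In the stretch 380 to 409, the mean of the 6 capital bases was 5414 ± 39.8 CPM in untreated cells and 11486 ± 1242 CPM in vitro. These bases, A409 among them, were picked because they were called higher in vitro, so their means are no test.

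Brd2 changed mostly at its downstream end. Its last 2 amplicons, which read positions 1452 to 1754, held 94 of the 128 calls, 94 of 208 readings or 45.2%. The first 4 amplicons, which read positions 622 to 1452, held 34 of 413, or 8.23%. This division was drawn after the values were seen and carries no test. By share of called readings the amplicon 1524 to 1774 ranked 6 and 1433 to 1683 ranked 9 of 161, at 46.8% and 43.4%, where the median amplicon had 13.8% and the highest 71%. Between positions 1500 and 1599, 18 readings rose and 29 fell of 77, and between 1600 and 1699, 10 rose and 25 fell of 78. Divided by the amplicon mean, the last 2 amplicons had 19 rises and 62 falls in place of 36 and 58, and the first 4 had 13 and 21 in place of 18 and 16. The counts were 51 and 12 without untreated replicate 2 and 50 and 14 without untreated replicate 3, so that the last 2 amplicons had the larger count in each case. For the first 4 amplicons the count was 12 without untreated replicate 1, 22 without ATP-depleted replicate 2 and 18 without ATP-depleted replicate 3.

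**Figure D2:**
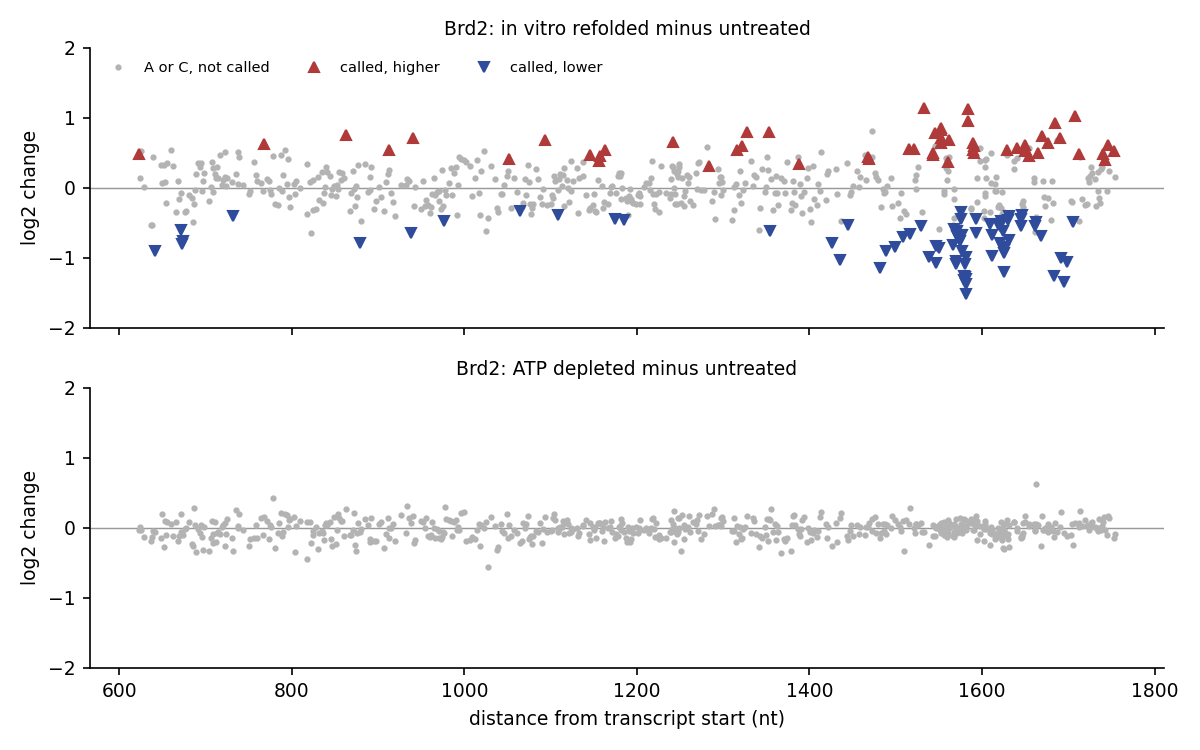
Log2 change in reactivity of each tested A and C of Brd2 against its distance from the transcript start in nt, in vitro refolded minus untreated (top) and ATP depleted minus untreated (bottom), n = 3 a group. In the top panel 54 rises and 74 falls were called (triangles), 94 of them in the last 2 amplicons; in the bottom panel none was.

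The centre of this segment is a run of weak bases beside a few strong ones. Over the 12 capital bases of the stretch 1564 to 1593, the mean was 4037, 4535 and 4429.8 CPM in untreated cells, 4229, 4519.6 and 4222 after ATP depletion and 889, 847 and 973 in vitro. The cell groups overlapped, and in vitro the mean was 903 ± 64.3 CPM against 4334 ± 263 in untreated cells. The 7 capital bases of the neighbouring stretch 1533 to 1562 went the other way, from 11727 ± 477 to 22374 ± 932 CPM, with 11991 ± 869 CPM after ATP depletion. As these bases were picked for their change, the means describe them and are no test.

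C1582 had the largest called fall of Brd2. In 1524 to 1774 it read 7541, 7795 and 8067 CPM in the untreated samples 1 to 3, 8117, 7353 and 8343 CPM after ATP depletion and 609.7, 336 and 996 CPM in vitro, a change of -1.52 ± 0.10 (limma adjusted p = 0.000194), with in vitro counts of 22, 4 and 35. The other amplicon gave -1.37 ± 0.12 (limma adjusted p = 0.000653), and in neither did the in vitro samples overlap with the cell samples. C1579, 3 nt upstream, fell from 5995 ± 560.0 to 494 ± 336 CPM in 1524 to 1774 and from 5542 ± 552 to 453 ± 406 CPM in 1433 to 1683. Those changes were -1.32 ± 0.13 and -1.26 ± 0.11 (limma adjusted p = 0.00101 and 0.000646). C1695, read once, gave 5884, 8119 and 4786 CPM in the untreated samples 1 to 3, 6672, 5801 and 4782 CPM after ATP depletion and 257, 635 and 632 CPM in vitro, a change of -1.34 ± 0.15 (limma adjusted p = 0.00139).

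A1584 lies 2 nt downstream of C1582 and rose where C1582 fell. It read 12031, 10834 and 11887 CPM in the untreated samples 1 to 3, 13396, 10692 and 13482 CPM after ATP depletion and 28357, 29680.5 and 28644 CPM in vitro in 1524 to 1774, a change of 1.12 ± 0.10 (limma adjusted p = 0.000727). In 1433 to 1683 the change was 0.96 ± 0.13 (limma adjusted p = 0.00336), and in both amplicons the cell groups overlapped below the in vitro samples. A1533 had the largest called rise, with 20472, 16934 and 19487 CPM in the untreated samples 1 to 3, 17916, 15876 and 20600.1 CPM after ATP depletion and 46185, 50343 and 41029.6 CPM in vitro and a change of 1.15 ± 0.13 (limma adjusted p = 0.00139). A1708 read 9815, 9144 and 10872 CPM in the untreated samples 1 to 3, 10140.0, 10575 and 10879 CPM after ATP depletion and 22748, 24678 and 23339 CPM in vitro, a change of 1.03 ± 0.09 (limma adjusted p = 0.000646). At each of these 3 A the lowest in vitro sample stood above the highest cell sample.

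**Figure D3:**
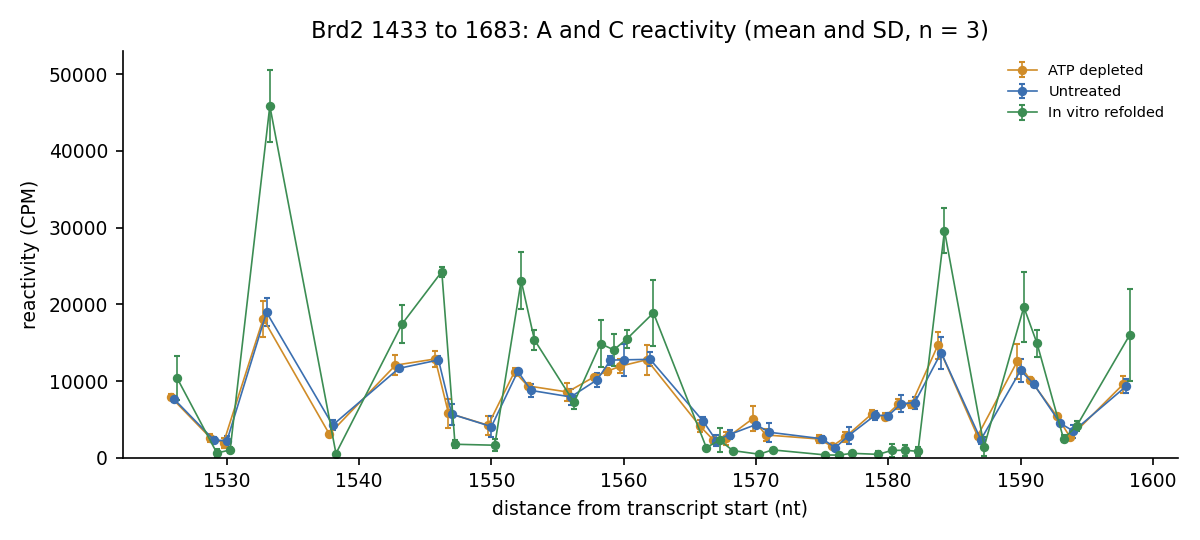
Reactivity in CPM of the A and C of Brd2 between 1526 and 1598 nt from the transcript start, as read in the amplicon 1433 to 1683; points are means and bars the SD of 3 samples for each group, joined by lines. The untreated and ATP-depleted profiles lie close together, while in vitro A1533 and A1584 stand at 45852 and 29589 CPM and most bases from 1566 to 1582 lie near the bottom of the axis.

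Positions read in 2 amplicons gave a second reading of the same samples. Of 66 such A and C positions of Brd2, 24 were called in both amplicons, all 24 in the same direction, and 18 in 1 amplicon with the same sign in the other. The changes correlated across positions by Pearson's r of 0.941. Most of these Brd2 positions lay between 1541 and 1663, in the segment with the most calls, so they do not stand for the whole leader. The same count over the whole table is not given here. Kmt2e had 83 shared positions, with 5 called in both and the same direction in all 5, and 22 called in 1 amplicon, 19 of them with the same sign in the other (r = 0.601). Eed had 32, with 3 called in both and the same direction in all 3, and 12 called in 1 amplicon, 9 with the same sign (r = 0.452). These positions share samples and sequence and are not independent. For ATP depletion against untreated cells the same correlations were 0.228 in Eed, 0.0855 in Kmt2e and 0.142 in Brd2.

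RNA refolded in vitro was also compared with ATP-depleted cells, which shares its in vitro samples with the comparison above. Of the 1076 readings 191 were called, 17.8% against 14.9% of the whole table, with 93 higher and 98 lower in vitro (8.31% and 6.56% of the whole table). Of 366 A, 43 rose and 11 fell (10.1% and 3.26% of the A in the whole table), and of 710 C, 50 rose and 87 fell (7.02% and 8.97%). Eed had 7 rises and 22 falls, Kmt2e 26 and 17, and Brd2 60 and 59. Divided by the amplicon mean the split was 41 rises and 114 falls. The count was 103, 70 and 94 without ATP-depleted replicate 1, 2 and 3. By gene, these 3 omissions gave 18, 9 and 17 in place of 29 for Eed, 17, 12 and 18 in place of 43 for Kmt2e, and 68, 49 and 59 in place of 119 for Brd2. In Brd2 the last 2 amplicons held 83 of 208 (39.9%) and the first 4 held 36 of 413 (8.72%), and without ATP-depleted replicate 2 these were 44 and 5, without replicate 3 50 and 9. The last 2 amplicons had 35 rises and 48 falls, or 17 and 53 after division by the mean, and the first 4 had 25 and 11, or 9 and 15. For the first 4 amplicons the count was 9 without ATP-depleted replicate 1, 22 and 23 without in vitro replicate 1 and 2, and 19 and 21 without untreated replicate 2 and 3.

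The values of the bases named above in this comparison follow. Brd2 A1533 differed by 1.20 ± 0.13, A1584 by 1.03 ± 0.10 and A1708 by 0.96 ± 0.09, and C1582 by -1.54 ± 0.10 and C1579 by -1.44 ± 0.13 (limma adjusted p of 0.00114 or less). Brd2 A1580, between these C, read 4578, 7903 and 4948 CPM in the untreated samples 1 to 3, 5862, 7437 and 5903 CPM after ATP depletion and 312, 112 and 1081 CPM in vitro, a change of -1.38 ± 0.17 against ATP-depleted cells (limma adjusted p = 0.00204). Its in vitro samples were all below the cell samples, also in the amplicon 1433 to 1683, where the change was -1.06 ± 0.14.

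In Kmt2e the largest rise against ATP-depleted cells was at C389, which read 10439, 7883 and 8841 CPM in the untreated samples 1 to 3, 5963, 4367 and 7620.1 CPM after ATP depletion and 18109, 18564 and 15543 CPM in vitro in 232 to 482. The 3 groups did not overlap, and the change was 1.18 ± 0.15 (limma adjusted p = 0.00263), whereas 272 to 522 gave 0.32 ± 0.19 (adjusted p = 0.282). A352 changed by 1.17 ± 0.15, C119 by 0.93 ± 0.14 and C422 by -1.07 ± 0.16 (limma adjusted p of 0.00516 or less). The falls at A173 (-0.85 ± 0.21, limma adjusted p = 0.0296) and A108 (-0.82 ± 0.22, adjusted p = 0.0385) were lost in 5 of 18 and 11 of 18 alternatives.

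In Eed, A440 and A436 rose by 0.84 and 0.79 against ATP-depleted cells (limma adjusted p = 0.00244 and 0.00239). C413 rose by 0.84 ± 0.20 (adjusted p = 0.0268) with in vitro samples at 17681, 15323 and 8439 CPM, and this call was lost in 7 of 19 alternatives. Its call against untreated cells (limma adjusted p = 0.0318) was lost in 10 of 19. C287 differed by -0.89 ± 0.13 in 214 to 464 (limma adjusted p = 0.00472). C232 differed by -0.71 ± 0.15 there (adjusted p = 0.0189), from 3933 ± 168 to 1168 ± 483 CPM. In 71 to 321 the in vitro readings of C232 rest on 1, 0 and 0 counts and those of C100 on at most 8, so their changes there have no firm size.

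The evenness of each profile was measured by the Gini coefficient of the A and C readings of an amplicon, which is 0 when all react equally and rises as the signal gathers on fewer bases. In vitro against untreated cells, 10 of the 11 amplicons were called with a higher coefficient, against 80.1% of all 161. A lower one was called in 0 (1.86% of all 161). The median difference was 0.104 in the 11 and 0.0923 in all 161. The largest were in the last 2 amplicons of Brd2. There 1433 to 1683 read 0.415, 0.358 and 0.36 in untreated cells, 0.428, 0.372 and 0.397 after ATP depletion and 0.591, 0.594 and 0.576 in vitro, a difference of 0.209 ± 0.0193 (limma adjusted p = 4.91e-05). The difference in 1524 to 1774 was 0.194 ± 0.0141 (limma adjusted p = 1.44e-05).

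Eed had differences of 0.154 ± 0.034 in 71 to 321 and 0.151 ± 0.0168 in 214 to 464 (limma adjusted p = 0.00381 and 0.000123). With counts thinned to the smallest library the value for 71 to 321 was 0.146 (limma adjusted p = 0.00193). Kmt2e 47 to 297 went from 0.397 ± 0.00878 to 0.549 ± 0.0151 (limma adjusted p = 9.28e-06) and 232 to 482 from 0.277 ± 0.0317 to 0.38 ± 0.00676 (adjusted p = 0.000691). Kmt2e 272 to 522 passed narrowly, at 0.0779 ± 0.0307 (limma adjusted p = 0.0447), and lost the call in 7 of 15 alternatives.

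The remaining Brd2 amplicons changed less. Brd2 813 to 1063, 1023 to 1273 and 1220 to 1470 differed by 0.0616, 0.0677 and 0.0562 (limma adjusted p of 0.00763 or less). The exception was the most upstream amplicon, 604 to 854, where the untreated samples read 0.418, 0.422 and 0.4 and the in vitro samples 0.43, 0.424 and 0.401. These overlapped, and the difference was 0.00492 ± 0.0107 (limma adjusted p = 0.684). Averaged per sample, the coefficient of the first 4 amplicons was 0.365 ± 0.00458 in untreated cells, 0.377 ± 0.00265 after ATP depletion and 0.412 ± 0.0141 in vitro. That of the last 2 was 0.355 ± 0.0298, 0.376 ± 0.0168 and 0.557 ± 0.00979, so the ends differed in vitro by more than the spread of either and in cells by less than that of the last 2 amplicons.

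Against ATP-depleted cells 10 of 11 amplicons were again called with a higher coefficient in vitro (78.9% of all 161). A lower one was called in 0 (1.86%). The exception was again Brd2 604 to 854, which stood at -0.00969 ± 0.0107 (limma adjusted p = 0.416). Between ATP-depleted and untreated cells 0 of 11 amplicons were called (0% of all 161). The nearest was Kmt2e 47 to 297, at 0.387, 0.401 and 0.403 in untreated and 0.428, 0.431 and 0.434 in ATP-depleted cells. These samples did not overlap, with a difference of 0.0334 ± 0.0099 that did not pass the test (limma adjusted p = 0.323).

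**Figure D4:**
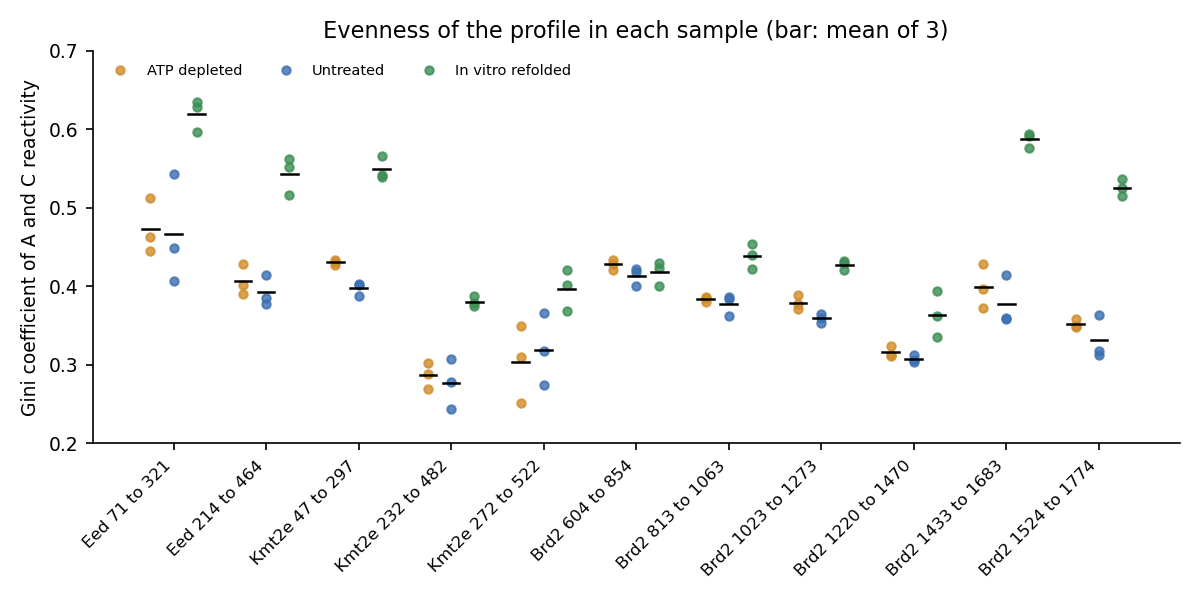
Gini coefficient of the A and C reactivities of each of the 11 amplicons (horizontal axis, named by gene and transcript positions) in each sample, with a black bar at the mean of the 3 samples of a group. The in vitro samples of the last 2 Brd2 amplicons sit at 0.515 to 0.594, above their cell samples, while in Brd2 604 to 854 the 3 groups overlap.

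The share of the A and C signal that lay on A was tested in the same way. It was called higher in vitro than in untreated cells in 5 of the 11 amplicons, against 37.3% of all 161. Brd2 1524 to 1774 went from 48.7, 45.5 and 46.3% in untreated cells to 60.1, 58.1 and 58% in vitro, with 48.3, 45.9 and 48.7% after ATP depletion. The in vitro samples lay above all cell samples by a difference of 11.8 ± 1.19 percentage points (limma adjusted p = 0.000304). Brd2 1433 to 1683 differed by 8.08 ± 1.2 points (limma adjusted p = 0.00129) and Eed 214 to 464 by 9.99 ± 1.65 points (adjusted p = 0.00198). Kmt2e 232 to 482 differed by 4.38 ± 1.23 points (limma adjusted p = 0.0226), a call lost in 4 of 14 alternatives. In Eed 71 to 321 the samples of the groups overlapped, and the difference of 7.84 ± 2.53 points (limma adjusted p = 0.0377) lost its call in 11 of 14 alternatives.

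In the first 4 Brd2 amplicons the share of A changed by between -0.997 and 2.53 points without a call. Against ATP-depleted cells, 3 of 11 were called, all 3 higher in vitro and 0 lower (called, higher and lower in all 161: 32.9%, 31.1% and 1.86%), namely both downstream Brd2 amplicons and Eed 214 to 464, by 8.14 ± 1.2, 11.1 ± 1.19 and 8.2 ± 1.65 points (limma adjusted p of 0.00667 or less). Between ATP-depleted and untreated cells 0 of 11 were called (0% of all 161).

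The profiles were set beside structures predicted from the read sequence alone with RNAfold, by the chance that an A or C predicted unpaired reacted more than one predicted paired (AUC, where 0.5 is no relation). In untreated cells it ranged from 0.609 ± 0.00613 in Brd2 604 to 854 to 0.874 ± 0.00503 in Eed 214 to 464. Both comparisons with RNA refolded in vitro called 4 amplicons of the 11 (24.2% of all 161 against untreated cells, 24.8% against ATP-depleted cells), 1 of them higher and 3 lower in vitro. In all 161, 12.4% were called higher and 11.8% lower against untreated cells, and 9.32% and 15.5% against ATP-depleted cells. Eed 214 to 464 fell to 0.8 ± 0.0278, a difference from untreated of -0.0735 ± 0.0144 (limma adjusted p = 0.00591). Kmt2e 232 to 482 differed by -0.0584 ± 0.0117 (limma adjusted p = 0.00599), with in vitro samples below all cell samples.

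In Brd2 1433 to 1683 the difference was -0.056 ± 0.0168 (limma adjusted p = 0.0386), a call lost in 7 of 14 alternatives. In Brd2 604 to 854 the AUC rose by 0.0911 ± 0.016 (adjusted p = 0.0037). That rise turned to -0.0405 (limma adjusted p = 0.0955) when pairing was taken from the partition function, so its direction depends on the prediction. Against ATP-depleted cells the 4 amplicons differed by -0.0576 ± 0.0144 (Eed 214 to 464), -0.053 ± 0.0117 (Kmt2e 232 to 482), -0.055 ± 0.0168 (Brd2 1433 to 1683) and 0.0904 ± 0.016 (Brd2 604 to 854), the last again reversed, at -0.0245, with the partition function (limma adjusted p = 0.31). The call for Brd2 1433 to 1683 was lost in 8 of 14 alternatives and that for Eed 214 to 464 in 3 of 14. Without ATP-depleted replicate 2, and without replicate 3, the count against ATP-depleted cells was 2. Between ATP-depleted and untreated cells none of the 11 was called, and 0.621% of all 161 were. Predictions were made for each read window alone, and a base can be predicted paired in one amplicon and unpaired in the other, as A1584 and C1582 of Brd2 were.

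**Figure D5:**
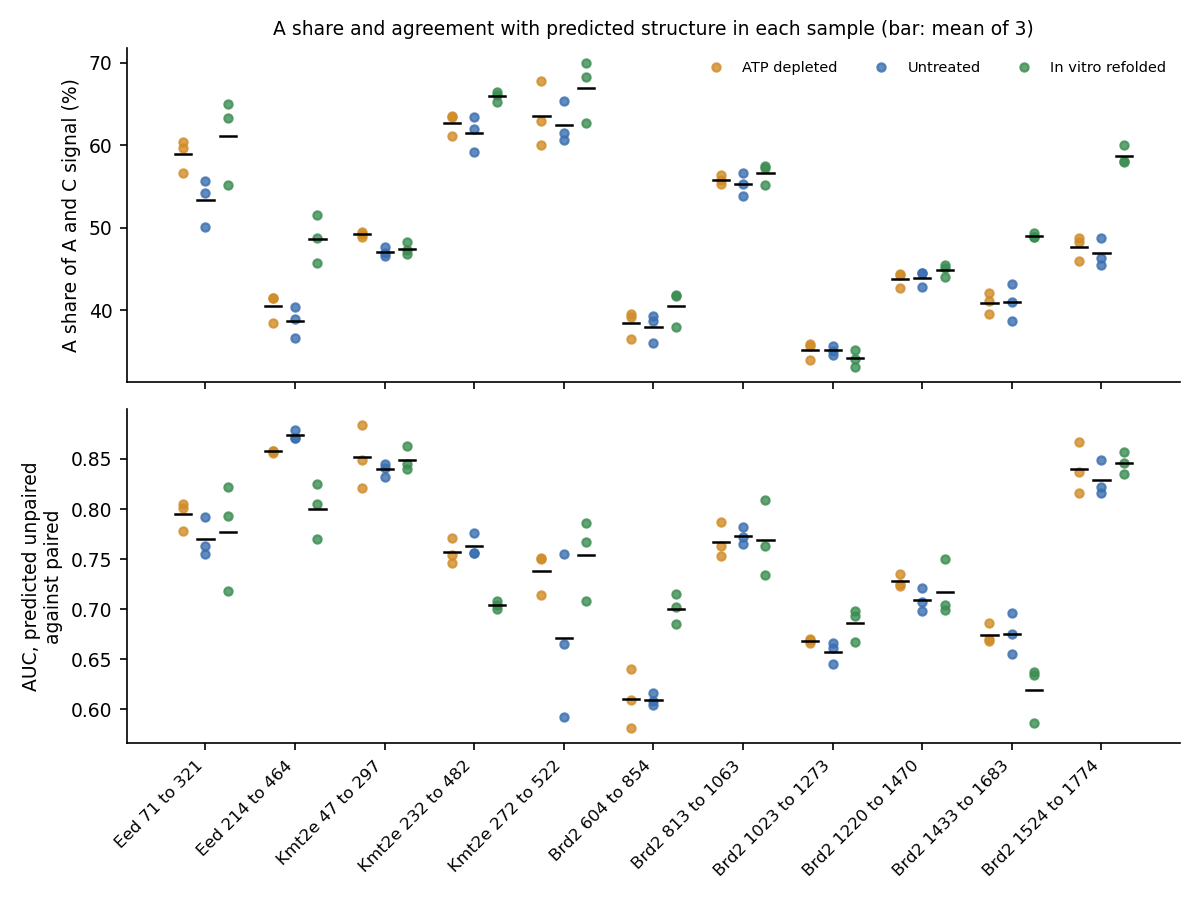
Share of the A and C signal on A in percent (top) and AUC of predicted unpaired against predicted paired A and C (bottom) for each of the 11 amplicons in each sample, with a black bar at the mean of the 3 samples of a group. In the top panel the in vitro samples of both downstream Brd2 amplicons, Eed 214 to 464 and Kmt2e 232 to 482 lie above the cell samples. In the bottom panel those of Eed 214 to 464, Kmt2e 232 to 482 and Brd2 1433 to 1683 lie below the cell samples. Those of Brd2 604 to 854 lie above them there.

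AUG triplets, where a scanning ribosome could start, were located in the read sequence. None lay in the read part of Eed. Kmt2e had 6, at positions 365, 375, 384, 402, 425 and 470, and Brd2 7, at 662, 739, 955, 1133, 1274, 1637 and 1716. Whether any of them starts the annotated protein was not examined. Those whose A is described next, looked up after the values were seen, are shown with the triplet in capitals.

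Kmt2e AUG at 375: acttagATGt
Kmt2e AUG at 402: gctggcATGc
Brd2 AUG at 1716: gtcaagATGc

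The A at 375 read 6881, 9669 and 11704 CPM in untreated cells and 6166, 3692 and 4757 CPM in vitro in the amplicon 232 to 482, a change of -0.64 (limma adjusted p = 0.0388). In 272 to 522 it read 8911, 6197 and 10062 CPM in untreated cells and 3115, 5477 and 4544 in vitro, a change of -0.61 (limma adjusted p = 0.0423). The in vitro samples were below the untreated ones in both. The A at 402, inside the stretch with rises, changed by 0.55 in 272 to 522 (limma adjusted p = 0.0274) and by 0.34 in 232 to 482 (adjusted p = 0.236). The A of the Brd2 AUG at 1716, inside the segment where many bases changed, read 10122 ± 1172 CPM in untreated cells and 8970 ± 3048 CPM in vitro, which did not pass the test (limma adjusted p = 0.602).

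Other chromatin genes from a list of 81 were looked for in the table, and 4 had amplicons: Kdm2a and Jmjd1c, which encode histone demethylases, Chd2, a chromatin remodeller, and Ctcf, an insulator protein. In vitro against untreated cells, 29 of 297 readings of Kdm2a were called (9.76%), 21 of 390 of Jmjd1c (5.38%), 29 of 179 of Chd2 (16.2%) and 63 of 202 of Ctcf (31.2%). The members' 20.6% lay within that range. Between ATP-depleted and untreated cells 0 readings were called in each of these 4 genes. By the Gini coefficients over the 9 samples, the amplicons of other genes most like the deepest amplicon of each member were Taok2 375 to 625 and Hipk3 141 to 391 for Eed 214 to 464, at Euclidean distances of 0.0692 and 0.0703. For Kmt2e 47 to 297 they were Eed 214 to 464 and Mapk6 391 to 641 (0.0725 and 0.0747), and for Brd2 813 to 1063 Ptprg 463 to 713 and Srgap2 196 to 446 (0.049 and 0.066). The median distances to all other amplicons were 0.293, 0.326 and 0.224.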

How the data were processed

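Dimethyl sulfate reactivity was measured by sequencing of cDNA amplicons in 9 samples. Per nucleotide and sample, the authors deposited log2 values. Its values gave whole counts back in every library (tolerance 0.0001) as log2 of (count + 0.5) over the amplicon's total, in CPM. The submitters' processing notes name bcl2fastq, Bowtie2 and limma, without versions here. Aligner settings, mutation counting and genome build: not given in the sources used here. Reads carry no molecular identifiers, so counting error is a lower limit. Transcripts were named from RefSeq.

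Here the log2 values were turned to CPM, since their unit differed from the reactivity the design assumed, and 3197 was added before log2. limma 3.58.1 (R 4.3.3) was fitted to all 16178 A and C readings with group means over all 9 samples, two-sided, with Benjamini-Hochberg adjustment at 0.05. Gini coefficient, A share and AUC were tested likewise over 161 amplicons. RNAfold (ViennaRNA 2.7.2, 37 °C) gave predicted pairing. The test was run on simulated counts. Only nucleotides at or above the median A and C reading were changed there, so changes at weaker bases were not covered. Nucleotides were named by rule: per gene and comparison, the 3 largest called rises and falls whose replicates did not overlap, or, with no call, the smallest p, the 3 highest levels, and the 30-nt windows with most calls. The members, lists and rules were chosen with earlier results of these data known. Alternatives covered pseudocount, scale, filter, base, depth, amplicon ends, pairing prediction, replicate block, the samples fitted and omission of each sample, and the amplicon Eed 71 to 321 was omitted as an alternative chosen after seeing the data.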

Additional observations from a re-analysis of the deposited data

Results flagged for a closer look

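The table also holds readings at G and at T (U in the RNA), which the comparisons of A and C left out, and the strongest of each gene is given because a signal stood there. DMS mainly marks A and C, and with no DMS-free sample analysed here, the background at these bases was not measured. The capital in each sequence is the base read.

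Eed G329: ttgcgacagtGgggggggcgg
Kmt2e T284: gaccgagcgcTgaggtgtgga
Brd2 T1347: gcggctctcgTgaccccccgg

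In Eed, T328 and G329 stand side by side at the start of a run of G and averaged 25772 and 13308 CPM over the 9 samples. T328 read 22986 ± 947 CPM in untreated cells, 23635 ± 1022 after ATP depletion and 30696 ± 1742 in vitro (SD, n = 3), and G329 12865 ± 1098 CPM in untreated cells, 11731 ± 1445 after ATP depletion and 15327 ± 2920.3 in vitro (SD, n = 3). Of the T readings of Eed, 23 of 52 lay above the median A and C reading, and of its G readings 3 of 187.

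In Kmt2e, T284 averaged 10298 CPM over the 9 samples and G448 4893 CPM. T284 read 8009 ± 1322 CPM in untreated cells, 8042 ± 1328 after ATP depletion and 14845 ± 1781 in vitro (SD, n = 3). Of the T readings of Kmt2e 11 of 140 lay above the median A and C reading, and of the G readings 0 of 214. In Brd2, T1347 averaged 12233 CPM and G1293 5678 CPM, where 26 of 209 T and 0 of 433 G lay above that median. T1347 read 11017 ± 1611 CPM in untreated cells, 12435 ± 640.0 after ATP depletion and 13247 ± 1475 in vitro (SD, n = 3).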

How the results depend on the processing

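Between ATP-depleted and untreated cells no nucleotide or amplicon measure of the 3 genes was called under any alternative. Of 56 results on named nucleotides against RNA refolded in vitro, 36 were called in every alternative and 0 reversed, and of 20 Gini results 16 were, with 0 reversed. Only results called in the main fit were counted, and most nucleotides were named for a large called change in the same data. These counts are therefore no independent support. A second amplicon was not among the alternatives, and Kmt2e A409 had the other sign there. The AUC of Brd2 604 to 854 reversed with the partition function, to -0.0405 against untreated and -0.0245 against ATP-depleted cells. The cause of the changes below was not tested, beyond the fewer readings or samples that some settings use.

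The 222 calls against untreated cells were 62 with A alone, 105 at or above the median and 113 with the 6 samples alone. The last 2 Brd2 amplicons then had 26, 36 and 56, and the first 4 had 8, 20 and 10. The 191 calls against ATP-depleted cells were 52, 95 and 122. For the last 2 Brd2 amplicons, A alone gave 25 and the median filter 36. For the first 4, A alone gave 6, the median filter 20, the 6 samples alone 12 and thinned counts 22. Without 25 positions at each end 3 A shares were called against untreated cells, and the partition function left 2 AUCs against ATP-depleted cells.

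With each replicate left out in turn, calls against untreated cells ranged from 108 to 212, with 50 to 86 in the last 2 Brd2 amplicons and 12 to 39 in the first 4. Against ATP-depleted cells they ranged from 70 to 187, with 44 to 83 and 5 to 38. Gini calls were 9 to 10 in both comparisons. A shares were 3 to 6 and 3 to 4, with 3 without in vitro replicate 1, in vitro replicate 3 or untreated replicate 2. AUCs were 3 to 4 and 2 to 4, with 2 without ATP-depleted replicate 2 or 3.

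Same-numbered samples deviated together weakly at most (r from -0.0177 to 0.1), so the numbers were not taken as pairs. Between the 2 cell groups, r was 0.0406, 0.1 and 0.0309 for the same number. For different numbers it ran from -0.0537 to 0.000822. With the replicate number as a block the calls were 188 against untreated cells, 157 against ATP-depleted cells and 0 between the cell groups. The first 4 Brd2 amplicons then had 23 in both comparisons, and 5 A shares were called against ATP-depleted cells. Each cell sample correlated best with its own number in the other cell group, which is a hint from the data and not the design.

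Without the amplicon Eed 71 to 321, an alternative chosen after seeing the data, 208 and 180 nucleotides were called. With counts thinned to the smallest library they were 173 and 145. Depth limits this amplicon most, at 478 to 1075 counts in vitro.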
